A study of Mus musculus with 5 samples.

Results

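The small leucine-rich proteoglycans described here were 10 genes named by symbol as matrix proteoglycans of sclera, choroid, cornea and vitreous: Lum, Fmod, Dcn, Bgn, Prelp, Ogn, Kera, Epyc, Optc and Omd. Each symbol matched 1 row of the count table, so the members were 10 of 33636 gene rows. Gene expression was measured by RNA-Seq in retinas of wild-type male C57BL6/J mice at postnatal day (P) 42. Form-deprivation myopia (FDM) libraries came from right eyes kept behind a translucent diffuser goggle for 2 weeks from P28, and control libraries came from the uncovered left eyes of the same animals. For eye measurements the mice of both groups had their pupils dilated with tropicamide and were anaesthetized with ketamine and xylazine. There were 2 FDM and 3 control libraries, each from 1 retina, and the control eye was thus not from an untreated animal. The second FDM library carries the number 3 in the count table and is called FDM 3, although the sample labels number it 2. Equal numbers in the count table were taken to mark the eyes of 1 mouse, which pairs FDM 1 with Control 1 and FDM 3 with Control 3, and leaves Control 2 without its partner, a library removed by the authors for its read duplication.

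Small leucine-rich proteoglycans are secreted proteins with a core of leucine-rich repeats, many of which bind fibrillar collagen and set the width and spacing of its fibrils. Class I members carry chondroitin or dermatan sulphate chains, class II members often carry keratan sulphate, and class III members are a mixed group that includes the vitreous protein opticin. In the eye the family is known from the stroma of cornea and sclera, from the vitreous and from connective tissue around vessels, and mutations in several members are linked to corneal or refractive phenotypes.

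The libraries held 40599047 to 56534931 estimated counts each. Levels are given in CPM, the share of a library's counts on a common scale set by the trimmed mean of M values (TMM), and a count of 0 allowed a level of up to 0.0526 to 0.0751 CPM, which is 3 counts of a library and covers counting error only. The retinal label held: Glul, the glutamine synthetase of Müller glia, had 2423 and 2541 CPM in FDM and 2391 to 2581 CPM in control libraries, and Grm6, the glutamate receptor of ON bipolar cells, had 212 and 227 CPM in FDM and 190.3 to 225 CPM in control libraries. FDM 3 stood apart in lens genes, whose sum was 1963 CPM against 2.71 to 18.2 CPM elsewhere. Control 3 stood apart in skeletal muscle genes, with 86.4 CPM against 10.6 to 12.0 CPM, and in pigment cell genes, with 131 CPM against 16.2 to 41.5 CPM. The count of members called is therefore also given without FDM 3 and Control 3.

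The members sat in 3 chromosomal clusters and 1 single locus (GRCm38, GENCODE M21). On chromosome 1, Optc (133897199 to 133907999, minus strand), Prelp (133910304 to 133921414, minus strand) and Fmod (134037254 to 134048277, plus strand) were neighbours. Optc and Prelp were only 2.30 kb apart, and 116 kb separated Prelp from Fmod. On chromosome 10, Dcn (97479609 to 97518143), Lum (97565128 to 97572703), Kera (97606879 to 97613692) and Epyc (97644068 to 97682454) followed each other on the plus strand. On chromosome 13, Omd (49582462 to 49592822) and Ogn (49608046 to 49624501) lay 15.2 kb apart on the plus strand, downstream of their relatives Ecm2 and Aspn. Bgn lay on chromosome X (73483602 to 73495933, plus strand). No other protein-coding gene lay wholly between neighbours of 1 cluster. Exons of Epyc and Prelp overlap those of the opposite-strand genes Gm10754 and Gm15851, and reads of the overlaps cannot be told apart in an unstranded library.

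Optc and Prelp are close neighbours with unlike library profiles, whereas Optc, Fmod and Ogn were all high in Control 2 and Control 3. The promoters of these 4 members are shown. Each is the RefSeq window (GRCm38.p6) from 250 bases before to 50 bases after the start, read 5′ to 3′ on the gene's strand at chr1:133907950-133908249 (minus) for Optc, chr1:133921352-133921651 (minus) for Prelp, chr1:134037004-134037303 (plus) for Fmod and chr13:49607765-49608064 (plus) for Ogn. Capitals mark TTATTCAGCAG, an 11-base word shared by Fmod and Ogn.
Optc: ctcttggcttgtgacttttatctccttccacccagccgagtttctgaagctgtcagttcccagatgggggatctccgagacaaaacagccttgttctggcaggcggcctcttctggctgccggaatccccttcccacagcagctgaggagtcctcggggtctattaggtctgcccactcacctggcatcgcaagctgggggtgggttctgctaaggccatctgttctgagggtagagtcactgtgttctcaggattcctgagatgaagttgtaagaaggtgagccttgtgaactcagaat
Prelp: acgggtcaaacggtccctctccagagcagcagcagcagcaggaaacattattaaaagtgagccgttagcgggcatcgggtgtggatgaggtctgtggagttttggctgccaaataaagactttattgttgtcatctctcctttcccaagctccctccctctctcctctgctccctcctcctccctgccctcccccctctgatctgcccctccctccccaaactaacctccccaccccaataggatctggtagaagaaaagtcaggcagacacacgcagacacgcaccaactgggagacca
Fmod: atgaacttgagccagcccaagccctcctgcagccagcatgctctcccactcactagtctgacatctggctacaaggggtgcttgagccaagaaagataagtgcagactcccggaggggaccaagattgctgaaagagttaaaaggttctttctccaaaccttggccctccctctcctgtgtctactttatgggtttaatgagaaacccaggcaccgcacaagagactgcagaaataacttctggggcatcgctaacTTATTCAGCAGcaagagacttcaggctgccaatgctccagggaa
Ogn: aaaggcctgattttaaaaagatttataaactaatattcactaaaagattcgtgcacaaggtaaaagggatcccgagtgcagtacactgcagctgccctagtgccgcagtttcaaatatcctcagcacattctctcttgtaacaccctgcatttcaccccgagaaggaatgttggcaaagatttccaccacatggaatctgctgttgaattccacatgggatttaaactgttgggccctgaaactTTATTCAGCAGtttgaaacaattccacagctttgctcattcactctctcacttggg
The shared word began 6 bases after the start base in Fmod and 6 bases before it in Ogn, was not found in Optc, and occurred on either strand in 10 of 32817 promoter windows (0.0305%). It was chosen after the sequences had been seen, and other pairs shared words as long, such as a 12-base word in Bgn and Prelp. Windows were found for 8 of the 10 members (9 windows), the exceptions being Lum and Dcn. Of the motifs searched on both strands, TATAAA (in 13.6% of all windows) occurred in Ogn, as 2 overlapping matches, 1 on each strand, 229 bases before the start, and GGGCGG (35.6%) occurred 3 times in Bgn. TAATCC (7.06%), TGACTCA (5.2%) and CACGTG (7.15%) were in none of the members' windows.

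The first question was how much of each proteoglycan transcript the retinas held. Per kilobase of exon, Prelp was first, with a mean of 12.5 CPM per kb in control libraries and a range of 11.7 to 13.2. Optc followed with 7.83 (1.03 to 14.1) and Fmod with 4.10 (1.27 to 5.87) CPM per kb. Ogn, at 1.22 (0.283 to 2.19), and Bgn, at 0.749 (0.544 to 1.13), lay in the middle of the order. Dcn, at 0.351 (0.112 to 0.779), Omd, at 0.273 (0.178 to 0.337), Kera, at 0.126 (0 to 0.369), Lum, at 0.116 (0.0358 to 0.241), and Epyc, at 0.049 (0 to 0.148 CPM per kb), closed it. Every neighbouring pair in this order overlapped in range between control libraries. All genes were measured in the same libraries, so these ranges do not show whether a step held within each library. Lum, Kera and Epyc did not pass the filter of more than 10 counts in at least 2 libraries, which left 7 members for testing.

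The main comparison asked which members differed between FDM and control retinas. At the unadjusted p of 0.05 that the study used as its threshold, 2 of the 7 tested members, Fmod and Omd, were lower in FDM and 0 were higher, where edgeR called 1.16% of all 17432 genes tested lower, 0.453% higher and 1.61% in either direction. No member passed after Benjamini-Hochberg adjustment in edgeR (adjusted p = 1.0 for each), and neither did any other of the 281 genes called. In DESeq2, which called 172 genes (3 after adjustment), and in limma neither Fmod nor Omd was called. All 7 fold changes were negative, as were those of 9688 of all 17432 genes tested. The median log2 fold change of the 7 members was -1.47 against -0.01 over all genes tested, the smallest being that of Prelp at -0.00. Omd was the only member with both FDM libraries below every control library, a pattern found in 6.67% of all genes, and none had both above every control library, as 3.97% of all genes did. In whole retinas, fewer cells of a type and less RNA per cell cannot be told apart.

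**Figure D1:**
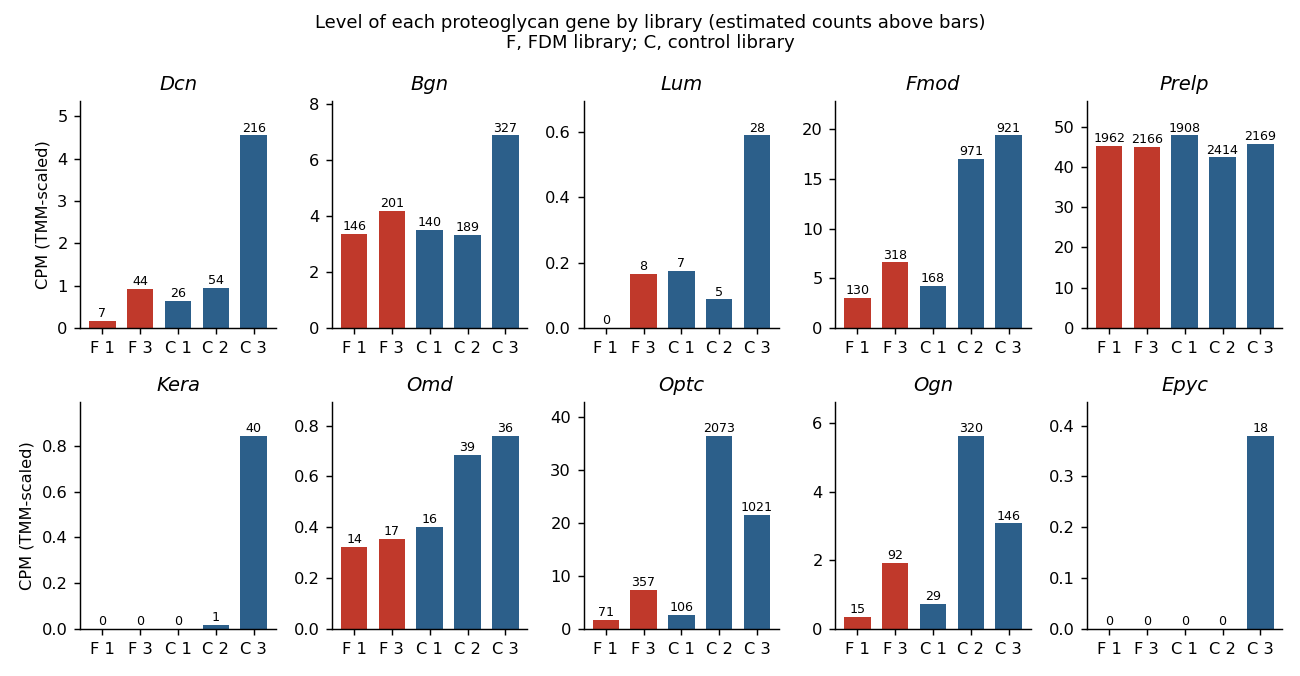
Level of each of the 10 proteoglycan genes in CPM (y axis, linear, from 0, a scale for each gene) in FDM libraries (red) and control libraries (blue), with the estimated count above each bar. Prelp is level across libraries, Optc, Fmod and Ogn are high in Control 2 and Control 3, and Dcn, Kera and Epyc are highest in Control 3.

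Of class I, Dcn (decorin, which binds collagen fibrils and limits their growth) varied over a wide range. Its level was 0.161 CPM in FDM 1 and 0.915 CPM in FDM 3, against 0.651, 0.947 and 4.55 CPM in Control 1, 2 and 3. FDM 1 was the lowest library and Control 3 the highest, while FDM 3 lay between Control 1 and Control 2, so the groups overlapped. The means were 0.538 ± 0.533 (SD, n = 2) and 2.05 ± 2.17 CPM (SD, n = 3), and the log2 fold change of -1.90 ± 0.98 (SE) did not pass (edgeR unadjusted p = 0.0914, 95% interval -4.20 to 0.39). The value depended on single libraries: without Control 3 the log2 fold change was -0.56 (edgeR unadjusted p = 0.457), without FDM 1 -1.16 (unadjusted p = 0.284) and without FDM 3 -3.65 (unadjusted p = 0.0274). Here and below, a fit without an FDM library has 1 left and takes its spread from the controls. Dcn was lower by 1.77 log2 units in FDM 1 than in Control 1 and by 2.26 in FDM 3 than in Control 3.

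Bgn (biglycan, the closest relative of decorin) was higher and steadier, at 3.37 and 4.18 CPM in FDM 1 and FDM 3 and at 3.51, 3.32 and 6.89 CPM in Control 1, 2 and 3. Control 3 alone stood above the rest, and the other 4 libraries lay together regardless of group. The log2 fold change was -0.27 ± 0.33 (SE; edgeR unadjusted p = 0.430, 95% interval -1.04 to 0.50) and was 0.15 without Control 3. Both Dcn and Bgn had their highest level in the library with raised skeletal muscle and pigment cell genes, and the part of those genes in the result was not tested. The summed fibroblast markers, which include Col1a1, Col1a2 and Col3a1, were also highest in Control 3, at 40.1 CPM. They had 25.7 and 29.6 CPM in Control 1 and 2 and 23.7 and 26.7 CPM in FDM 1 and FDM 3, and 0 of 9 tested passed without a block.

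Of class II, Fmod (fibromodulin, which binds collagen and steers its cross-linking) was 1 of the members called. It had 3.0 and 6.61 CPM in FDM 1 and FDM 3 and 4.21, 17.0 and 19.4 CPM in Control 1, 2 and 3. Control 2 and Control 3 were high, whereas Control 1 lay between both FDM libraries, so the groups overlapped. The log2 fold change was -1.50 ± 0.63 (SE; edgeR unadjusted p = 0.0470, 95% interval -2.96 to -0.03). The call was lost without FDM 1 (-1.04, unadjusted p = 0.176), Control 2 (-1.29, unadjusted p = 0.102) or Control 3 (-1.15, unadjusted p = 0.152), and the mean over control libraries, 13.5 ± 8.17 CPM (SD, n = 3), had a spread larger than the FDM mean of 4.81.

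Omd (osteomodulin, a keratan sulphate proteoglycan best known from bone and tooth) was the other member called, at a low level. It had 0.323 and 0.353 CPM in FDM 1 and FDM 3, which were 14 and 17 counts, and 0.401, 0.684 and 0.758 CPM in Control 1, 2 and 3, which were 16, 39 and 36 counts. The groups did not overlap, but Control 1 was closer to FDM 3 than to the other control libraries. The log2 fold change was -0.87 ± 0.35 (SE; edgeR unadjusted p = 0.0430, 95% interval -1.70 to -0.04), and leaving out 1 library at a time gave -1.08 to -0.70, with the call kept only without Control 1 (unadjusted p = 0.00794).

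Prelp (prolargin, which links collagen to heparan sulphate in basement membranes) was the most abundant member and the least variable. Its level was 45.3 and 45 CPM in FDM 1 and FDM 3 and 47.8, 42.3 and 45.7 CPM in Control 1, 2 and 3. The FDM libraries lay inside the control range, and the SD of its log2 CPM over the 5 libraries was 0.0623, against 0.439 for Bgn and 1.89 for Optc. The log2 fold change was -0.00 ± 0.09 (SE; edgeR unadjusted p = 0.968), with a 95% interval of -0.20 to 0.20. That interval rests on the spread between 2 FDM and 3 control libraries.

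Lum (lumican) and Kera (keratocan), keratan sulphate proteoglycans of the corneal stroma, were near the detection limit. Lum had 0 and 8 counts in FDM 1 and FDM 3 and 7, 5 and 28 counts in Control 1, 2 and 3. No read of Kera was counted in either FDM library, against 0, 1 and 40 counts in Control 1, 2 and 3. For both genes Control 3 held most of the reads, and no fold is given because the control side of Kera rests on that library. Summed markers of the corneal epithelium, which do not cover the stroma, were 0.807 and 1.35 CPM in FDM and 0.990 to 1.81 CPM in control retinas. They were 0.990 CPM in Control 3, and Krt14 was at 0 in at least 1 library. The source of the Lum and Kera reads was not tested.

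Of class III, Optc (opticin, a vitreous proteoglycan made by the ciliary epithelium) had the largest fold change of the unblocked fit (Dcn had that of the fit blocked by mouse), and its highest library was 22.2 times its lowest, a range exceeded only by that of Dcn (28.2) among the tested members. It had 1.64 and 7.42 CPM in FDM 1 and FDM 3 and 2.65, 36.4 and 21.5 CPM in Control 1, 2 and 3. Control 2 was 13.7 times and Control 3 8.10 times as high as Control 1, and FDM 3 was 4.53 times as high as FDM 1, so both groups spread widely and overlapped. The log2 fold change of -2.15 ± 1.01 (SE) did not pass (edgeR unadjusted p = 0.0689, 95% interval -4.52 to 0.22). It passed without FDM 3 (-3.63, unadjusted p = 0.0236) or Control 1 (-2.66, unadjusted p = 0.00271), but was -1.45 without FDM 1 (unadjusted p = 0.214) and -1.41 without Control 2 (unadjusted p = 0.188).

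Ogn (osteoglycin or mimecan, which regulates fibril width and carries keratan sulphate in cornea) followed the same order of libraries at a lower level. It had 0.346 and 1.91 CPM in FDM 1 and FDM 3 and 0.726, 5.61 and 3.07 CPM in Control 1, 2 and 3. As for Optc, Control 2 was highest, Control 3 second, and FDM 3 above Control 1. The log2 fold change was -1.47 ± 0.87 (SE; edgeR unadjusted p = 0.133, 95% interval -3.52 to 0.57), and it passed without FDM 3 (-3.19, unadjusted p = 0.0195) or Control 1 (-1.92, unadjusted p = 0.0180). It was -0.73 without FDM 1 (unadjusted p = 0.414) and -0.74 without Control 2 (unadjusted p = 0.399). Epyc (epiphycan, a cartilage proteoglycan) had 18 counts in Control 3 and 0 counts in every other library, which allows up to 0.0751 CPM there, and is left without a fold.

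**Figure D2:**
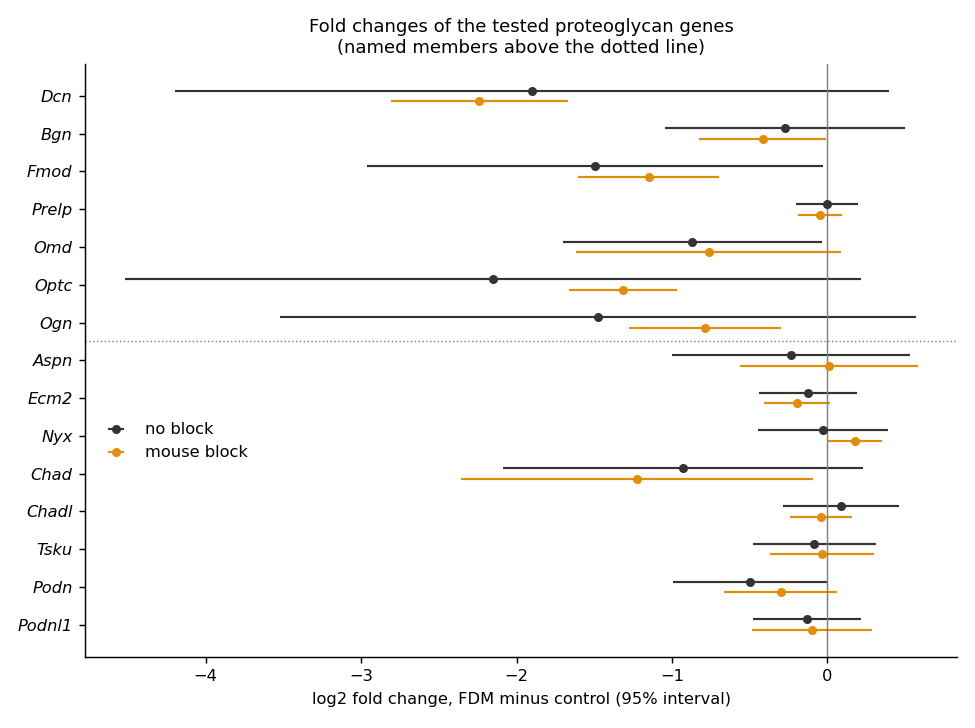
Log2 fold change of FDM minus control (x axis) with its 95% interval for the 7 tested members and 8 other small leucine-rich proteoglycans (y axis), from edgeR without a block (black) and with the mouse as a block (orange). The intervals of Optc, Dcn, Ogn, Bgn and Chad cross 0 without the block and lie below 0 with it. That of Omd lies below 0 without the block and crosses 0 with it. That of Nyx lies above 0 with the block, and Prelp stays at 0.

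Since both eyes came from the same animals, the members were also compared within the pairs that the numbers of the count table give. All 7 tested members were lower in the FDM eye of both pairs, a pattern shown by 30.3% of all genes, although for Prelp the differences were only -0.08 and -0.02 log2 units. The differences of FDM 1 from Control 1 and of FDM 3 from Control 3 were -0.48 and -1.55 for Fmod, -0.28 and -1.02 for Omd and -0.06 and -0.71 for Bgn. They were -0.68 and -1.53 for Optc and -0.98 and -0.67 for Ogn. Except for Prelp and Ogn, the difference was larger between FDM 3, in which the lens genes were high, and Control 3, in which the muscle and pigment cell genes were high.

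Blocking by mouse, edgeR called 5 of the 7 tested members lower (Dcn, Bgn, Fmod, Optc and Ogn), where 3.67% of all genes were called lower and 7.23% in either direction. Dcn had a blocked log2 fold change of -2.24 (edgeR adjusted p = 0.00582) and Optc one of -1.32 (adjusted p = 0.00702), and these were 2 of the 54 genes (0.31%) that passed after adjustment. Fmod had -1.15 (edgeR adjusted p = 0.0823), Ogn -0.79 (adjusted p = 0.472) and Bgn -0.42 (adjusted p = 0.683). Omd was no longer called under the block (-0.77, unadjusted p = 0.0729). This fit rests on 2 pairs of eyes with 1 residual degree of freedom, and its pairing follows the number in the count table, not that in the labels. Across all genes, deviations of FDM 3 from its group mean correlated at 0.0998 with those of Control 3 and at 0.163 with those of Control 2. With 2 FDM libraries, the deviations of FDM 1 are exactly the negative of those of FDM 3, so these values cannot decide the pairing. Blocking instead by the label numbers, which puts FDM 3 with Control 2, called 4 members lower (Dcn, Fmod, Optc and Ogn), where 1.78% of all genes were called lower. Of these, Fmod, Optc and Ogn were among the 128 genes (0.734%) that passed after adjustment, whereas Dcn had a log2 fold change of -0.70 (edgeR adjusted p = 1.0).

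**Figure D3:**
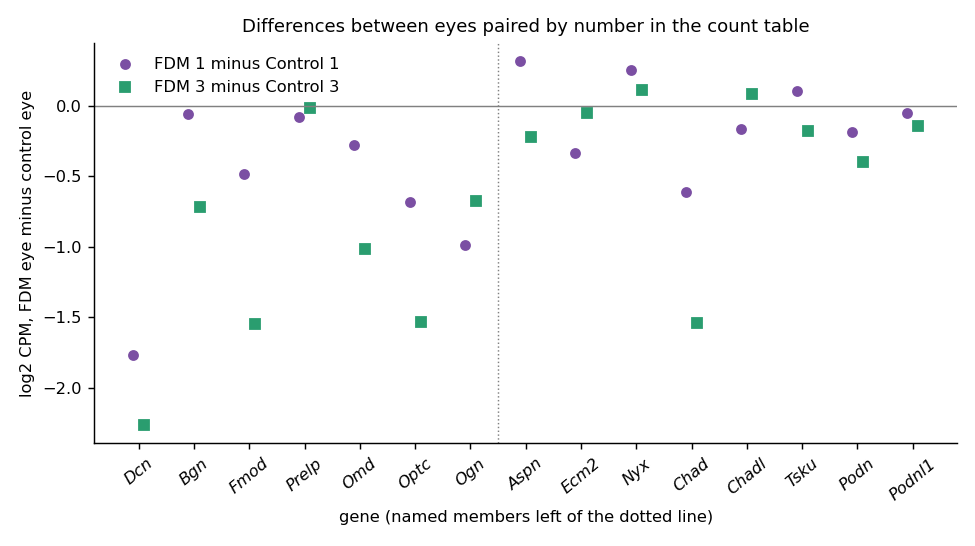
Difference in log2 CPM between the FDM eye and the control eye (y axis) for FDM 1 and Control 1 (circles) and for FDM 3 and Control 3 (squares), for each tested gene (x axis), with the named members left of the dotted line. All 7 members lie below 0 in both pairs, whereas 4 of the 8 other small leucine-rich proteoglycans do.

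The library profiles of the members fell into a few kinds, which were described after their values had been seen. Optc, Fmod and Ogn were at least 3-fold higher in both Control 2 and Control 3 than in Control 1, as were 0.734% of all genes tested. Dcn was over 3-fold higher in Control 3 than in any other library, as were 0.126%. Prelp, Bgn and Omd showed neither pattern. The closest pairs of members, by the root mean square difference of their centred log2 CPM over the 5 libraries, were Bgn with Prelp (0.386) and Optc with Ogn (0.398), followed among the variable genes by Fmod with Ogn (0.524). Fmod was closer to Omd (0.643) than to Optc (0.693), and was highest in Control 3. The most unlike pair was Prelp with Optc (1.73), the neighbours on chromosome 1 shown above.

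**Figure D4:**
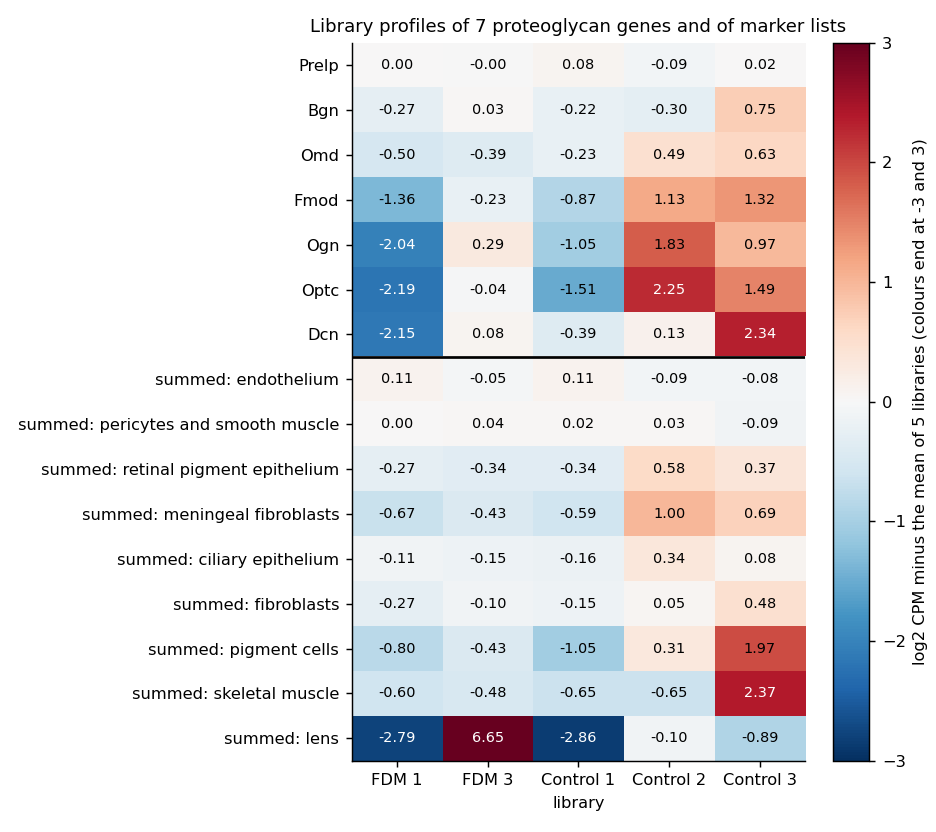
Log2 CPM of the 7 tested members, and of summed marker lists below the black line, minus the mean over the 5 libraries (colour, with the value in each cell), by library. The retinal pigment epithelium and meningeal sums are high in Control 2 and Control 3, where Optc, Ogn and Fmod are high, and the skeletal muscle and pigment cell sums are highest in Control 3, where Dcn is highest.

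Several marker genes of tissues next to the retina were high in the same libraries. Summed over 9 markers, the retinal pigment epithelium had 286 and 273 CPM in FDM 1 and FDM 3 and 273, 516 and 447 CPM in Control 1, 2 and 3. Of the 9, 7 were called lower in FDM, where 1.16% of all genes were. Rpe65, the isomerase of the visual cycle, had 5.49 and 4.51 CPM in FDM 1 and FDM 3 and 5.36, 27.9 and 23.6 CPM in Control 1, 2 and 3. Of these 9, Trpm1 is also expressed by ON bipolar cells and was not called. The 8 meningeal fibroblast markers summed to 12.7 and 15.1 CPM in FDM and to 13.5, 40.6 and 32.8 CPM in Control 1, 2 and 3, with Slc6a13 called lower among the 6 tested and Slc22a6 at 0 in at least 1 library. Slc6a13 (14.2 to 18.8 CPM in Control 2 and 3 against 2.91 to 3.95 CPM elsewhere), Slc13a4 and Slc22a8 carried this sum, while Foxc1 had 1.27 to 1.47 CPM and Slc47a1 1.31 to 1.79 CPM over the 5 libraries. The 9 members other than Prelp summed to 8.84 and 21.6 CPM in FDM 1 and FDM 3 and to 12.3, 64.1 and 58.0 CPM in Control 1, 2 and 3, with Control 2 and Control 3 high in all 3 sums.

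The 5 markers of the ciliary epithelium, the source of opticin, summed to 73.1 and 70.9 CPM in FDM 1 and FDM 3 and to 70.3, 99.8 and 83.2 CPM in Control 1, 2 and 3, with 0 of 5 called. Col9a1 made up most of this sum, and Zic1 had 6.04 and 5.63 CPM in FDM 1 and FDM 3 and 5.46, 11.1 and 8.61 CPM in Control 1, 2 and 3. Without a block, the 5 pigment cell and 8 skeletal muscle markers gave 0 calls among 5 tested in each list. Tnnt3 and Myh4 were at 0 in some libraries, and all 8 muscle markers were highest in Control 3. With the mouse as a block, 5 of 5 muscle markers (1 after adjustment) and 3 of 5 pigment cell markers were called lower. So were 7 of 9 retinal pigment epithelium (1 after adjustment), 3 of 9 fibroblast and 2 of 6 meningeal markers, and 0 of the ciliary markers. Of all genes, 3.67% were called lower under that block. All 8 lens markers tested were called higher without a block, where 0.453% of all genes were, and all were highest in FDM 3. Sums of vessel and astrocyte markers differed less between libraries: 98.2 to 107 CPM for pericytes and smooth muscle, 298 to 344 CPM for endothelium and 45.4 to 56.4 CPM for astrocytes. Blood markers summed to 33.0 to 47.6 CPM, a relative range about as wide as that of the ciliary sum. Each of these lists had 0 calls without a block, and under the mouse block 1 blood marker was called lower. The part of these tissues in the differences of the proteoglycan genes was not tested. Without FDM 3 and Control 3, 4 members were called lower (Dcn, Fmod, Optc and Ogn), where 0.615% of all genes were, with 1 FDM library left and its spread assumed to be that of the controls.

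The 8 other small leucine-rich proteoglycans measured, all of which passed the filter, had an SD of log2 CPM over the 5 libraries of 0.0925 (Podnl1) to 0.612 (Chad). None was called in the main comparison, at a median log2 fold change of -0.13. Nyx (nyctalopin, needed by ON bipolar cells) had 14.8 and 14.7 CPM in FDM and 12.5, 19.0 and 13.6 CPM in control libraries. Podn (podocan) had 2.79 and 2.97 CPM in FDM and 3.18, 5.05 and 3.94 CPM in control libraries, which did not overlap (-0.50, edgeR unadjusted p = 0.0508). Podnl1, a relative of Podn, did not overlap either (-0.13, edgeR unadjusted p = 0.402). Of all genes, 6.67% had both FDM libraries below every control library. Podn was called lower with upper quartile factors, no count filter or over 10 counts in all libraries (edgeR unadjusted p of 0.0369 to 0.0489). It was also called lower with the block by label number (-0.49, edgeR unadjusted p = 0.0254) and without Control 1 (-0.64, unadjusted p = 0.00950). Chad (chondroadherin, a cartilage protein) had 6 to 21 counts per library and a log2 fold change of -0.93 (unadjusted p = 0.0999). Without Control 2, Chad was called lower (-1.20, edgeR unadjusted p = 0.0338). Ecm2, Chadl, Tsku and Aspn had log2 fold changes of -0.13, 0.09, -0.09 and -0.24. Under the mouse block, Chad was called lower (-1.22, edgeR unadjusted p = 0.0370) and Nyx higher (0.18, unadjusted p = 0.0458), where 7.23% of all genes were called in either direction. In the FDM eye of both pairs, 4 of the 8 (Ecm2, Chad, Podn and Podnl1) were lower, as were 30.3% of all genes.

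Genes that work with the proteoglycans were for the most part not called. Of 13 collagens that bind them or share their fibrils, 0 passed in either direction. Col1a2, a chain of type I collagen, had 3.58 and 5.57 CPM in FDM and 4.23, 9.33 and 12.2 CPM in control libraries (-0.91, edgeR unadjusted p = 0.0637), and Col6a3 was highest in FDM 3 (0.79, unadjusted p = 0.0754). Col6a3 was 0.06 without FDM 3, but was called higher in limma (1.5, unadjusted p = 0.0159 at a pseudocount of 1), with the authors' factors (1.73, unadjusted p = 0.00792), with the block by label number (0.81, unadjusted p = 0.0195), without FDM 1 (1.26, unadjusted p = 0.00600) and with no count filter. Under the mouse block, 2 of the 13 collagens were called lower, Col1a2 among them (edgeR unadjusted p = 0.00352), and 2 were called higher. Of all genes, 3.67% were called lower and 7.23% in either direction under that block. Col1a2 was also called lower with no count filter (edgeR unadjusted p = 0.0269). So it was with the block by label number (-0.51, edgeR unadjusted p = 0.00609) and without Control 1 (-1.23, unadjusted p = 0.00109). Of 22 genes of chondroitin and dermatan sulphate synthesis, 20 were tested and 0 passed. Dse, the epimerase that makes dermatan sulphate, had a log2 fold change of -0.62 (edgeR unadjusted p = 0.0815) and Chst14, a dermatan sulphotransferase, one of 0.24 (unadjusted p = 0.157). Without Control 1, Dse was called lower (-0.87, edgeR unadjusted p = 0.00179).

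Of 7 genes of keratan sulphate synthesis, 5 were tested and 0 passed. Chst1, a keratan sulphate sulphotransferase, had a log2 fold change of -0.11 (edgeR unadjusted p = 0.224), and B4galt1, a galactosyltransferase, one of -0.09 (unadjusted p = 0.357). Of 7 proteases that cut proteoglycans or their precursors, 5 were tested and 0 passed, with values of 0.06 for Adamts5 (unadjusted p = 0.550), an aggrecanase, and 0.04 for Bmp1 (unadjusted p = 0.599), which removes propeptides. Of 9 receptors and ligands that proteoglycan cores bind, 1 was called, where 1.61% of all genes were called in either direction. Met, the hepatocyte growth factor receptor, which decorin binds, had 2.47 and 2.54 CPM in FDM 1 and FDM 3 and 2.71, 6.21 and 4.23 CPM in Control 1, 2 and 3 (-0.82 ± 0.32 SE, edgeR unadjusted p = 0.0387, adjusted p = 1.0). Its FDM libraries lay below every control library, as in 6.67% of all genes, and it was again highest in Control 2. Its call was lost in limma (unadjusted p = 0.0679 at a pseudocount of 1) and without FDM 1, FDM 3, Control 2 (-0.47, unadjusted p = 0.0940) or Control 3.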

How the data were processed

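RNA-Seq of 5 mouse retinas, 2 FDM and 3 control, was grouped by the sample labels, and each library of a group came from a separate mouse. The authors trimmed reads with Trimmomatic 0.39, quantified transcripts with Salmon 1.10.1, summed them to genes in R 4.3.1 and deposited estimated counts, here whole numbers. The authors also deposited a normalized signal, whose scaling factor differs between genes and libraries and which was used only for alternatives. Per the labels the build was GRCm38, and the methods name an Ensembl release of it for the joint analysis that included these libraries.

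The 17432 genes (of 33636) that exceeded 10 counts in 2 or more libraries entered the quasi-likelihood test of edgeR 4.0.16 (R 4.3.3) with TMM factors and no covariate. Standard errors were derived from the F statistic. Levels are TMM-scaled CPM, and within-mouse differences are of log2 CPM with a prior count of 2. Per-kilobase levels use the union of exons in GENCODE M21, in which 33585 identifiers were found. The script was tested on simulated data. As alternatives, the comparison was repeated in DESeq2 1.42.0, in limma 3.58.1 (log2 of the deposited normalized signal with a pseudocount of 1 or 0.1), with other factors, filters and blocks, and without each library. Values of the second FDM library come from the column numbered 3 in the count table, matched to the FDM group only. Libraries of 1 group differed beyond sampling noise (chi-square per degree of freedom 18.4 to 60.9).

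The members and gene lists were chosen with earlier results of these data known. The genes named are all 10 members, 8 other family members, the called genes or else the 2 of smallest p in each pathway list, and markers by their mean count, with Glul, Grm6, Trpm1, Slc22a6, Slc13a4, Slc22a8, Foxc1, Slc47a1, Zic1, Krt14, Tnnt3 and Myh4 named after their values were seen. Pairing of eyes follows the numbers of the columns in the count table, also used in the supplement, and not those of the labels. Across 17432 genes, deviations from the group mean correlated at 0.247 for FDM 1 and Control 1. They correlated at 0.0998 for FDM 3 and Control 3 and at 0.163 for FDM 3 and Control 2. The 2 FDM libraries deviate in exact opposition, so FDM 3 and Control 1 had -0.247. These values are thus linked and are no separate checks of each pair. A withheld gene and the summed retinal marker list that held it are not reported here.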

Additional observations from a re-analysis of the deposited data

How the results depend on the processing

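Of the members called (2 in the report), 2 were also called with RLE or upper quartile factors and with over 10 counts asked of all 5 libraries. The number was 1 with library totals alone and 0 with DESeq2 or with limma at either pseudocount, and it was 5 of 10 tested with no count filter (Dcn, Fmod, Kera, Omd and Optc). Leaving out 1 control library at a time gave 0 members without Control 2 (535 of 17179 genes called) or Control 3 (146 of 17282). It gave 5 members without Control 1 (946 of 17353 genes called). Alternatives added after the data had been seen gave 1 with the authors' factors as offsets and 4 without FDM 3 and Control 3. The replicate block gave 5 by mouse and 4 by label number, with 2 (Dcn and Optc) and 3 (Fmod, Optc and Ogn) passing after adjustment. Of 17432 genes tested, calls numbered 281 in the report, 172 in DESeq2, 1261 with the block by mouse and 439 with that by label number. With no filter they numbered 498 of 24659.

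The directions of Dcn, Fmod, Omd, Optc and Ogn held under every alternative that gave a value. Bgn turned positive in limma (0.081 at either pseudocount), with the block by label number (0.14), without Control 3 (0.15) and with the authors' factors (0.021), and ran from -0.46 to 0.15 with 1 library left out. Prelp, at -0.00 in the report, was 0.0034 with RLE, 0.0098 with upper quartile factors, 0.0081 with library totals, 0.0038 in DESeq2, 0.0055 with the block by label number, 0.038 without Control 1, 0.0092 without Control 3 and 0.022 without FDM 3 and Control 3, and -0.039 to 0.038 with 1 library left out. Nyx turned to 2.75e-04 and 3.07e-04 in limma, 0.18 with the block by mouse and 0.19 without Control 2 (-0.14 to 0.19 with 1 library left out). Chadl turned to -0.042 with the block by mouse and -0.035 without Control 2 (-0.035 to 0.22), Aspn to 0.0082 with that block, and Tsku to 0.11 without FDM 3 (-0.31 to 0.11) and 0.065 without FDM 3 and Control 3. The causes were not tested. Dcn was not tested when all 5 libraries had to exceed 10 counts. Counts of 0 to 40 limited Lum, Kera and Epyc, and with 2 FDM retinas every interval rests on 5 libraries.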
